A study of Mus musculus with 2 samples.

Results

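Cytosolic ribosomal protein genes were examined in CD45+ leukocytes from subcutaneous MC38 tumors of mice fed a ketogenic or a normal diet. Genes were taken by symbol (Rpl, Rps, Rplp and Rpsa, without the Rps6k kinases) if they had at least 50 unique molecular identifiers (UMIs, each standing for 1 captured RNA molecule) over both libraries in barcodes with at least 500 UMIs and 300 genes. Of 32285 genes in the files, 91 matched the names and 88 were members. These were 77 canonical proteins, 46 of the large (60S) and 31 of the small (40S) subunit, and 11 paralogs, pseudogenes and one binding partner, Rps19bp1. Just inside the minimum lay Rpl39l with 74 UMIs and Rpl3l with 157, and just outside lay Rpl9-ps1 with 8, Rpl36-ps4 with 2 and Rpl10l with 0.

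The tumors came from MC38 cells, a mouse colon carcinoma line, injected with matrigel under the skin of 6 to 8 week old female C57BL/6J mice. The ketogenic group received the ketogenic diet from day 4 until the end, and the control group a normal diet. Tumors were taken on day 14, dead cells were removed, and CD45+ cells were enriched on magnetic beads. Each diet is 1 droplet-based 3′ library of cells combined from 5 mice, so diets have no replicate: no difference between them was tested, and all intervals cover counting error only. Diet, pool of mice and library cannot be told apart.

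The ketogenic library held 42710007 UMIs and the normal-diet library 37575996. After a limit of 10% mitochondrial UMIs, 5873 and 5608 barcodes were kept, with a median of 3983 and 4226 UMIs. Before that limit, 7 barcode sequences occurred in both libraries among 5944 and 5671 candidates. Barcodes were sorted into 14 classes by marker genes, and barcodes with markers of a second lineage (728 ketogenic, 688 normal diet) or with no class (866 and 846) were set aside. The 6 classes with at least 100 cells in each library were the neutrophil-like, monocyte-like and macrophage-like barcodes, and the NK cell-like, CD8 T cell-like and remaining ("other") T cell-like lymphocytes. Their own marker lists were all detected. The NK list summed to 7614 and 7248 counts per 1000000 UMIs (CPM) in ketogenic and normal-diet NK cell-like barcodes. The macrophage list summed to 13836 and 13674 CPM in macrophage-like barcodes. Genes of these lists also set the gates, so their presence in their own class was fixed by the sorting and is no check of it. Although CD45 was selected for, 89 and 54 barcodes carried tumor or stromal markers.

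Ribosomal proteins of the 60S and 40S subunits are built with ribosomal RNA into the ribosome, the machine that translates messenger RNA. Their messengers are among the most abundant of a cell and usually begin with a 5′ terminal oligopyrimidine (TOP) tract, through which mTOR signaling adjusts their translation. Growing and activated lymphocytes make many ribosomes, whereas mature neutrophils are known for a low RNA content.

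Promoter entries from RefSeq (GRCm38.p6) were found for 65 members, 57 of them canonical. The windows below, 40 bases before to 30 bases from the RefSeq start on the coding strand, belong to the 3 canonical members lowest and the 3 highest in the diet order described further on. They are shown because these members stand at its ends, and capitals mark CGGAAG or its complement, and CTTTC or CTTCC.
Rpl4: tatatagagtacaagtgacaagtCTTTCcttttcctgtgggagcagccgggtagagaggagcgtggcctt
Rpl13a: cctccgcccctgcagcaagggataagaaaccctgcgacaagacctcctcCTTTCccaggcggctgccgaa
Rps6: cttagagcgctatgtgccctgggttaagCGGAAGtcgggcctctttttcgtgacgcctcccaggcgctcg
Rpl38: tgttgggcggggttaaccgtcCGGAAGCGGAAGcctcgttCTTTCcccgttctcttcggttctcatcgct
Rps28: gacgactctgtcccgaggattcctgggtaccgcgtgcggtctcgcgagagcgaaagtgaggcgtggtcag
Rps26: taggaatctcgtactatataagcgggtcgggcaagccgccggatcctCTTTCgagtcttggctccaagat
The windows lie at chr9:64173347-64173416 (plus strand) for Rpl4, chr7:45128716-45128785 (minus) for Rpl13a and chr4:86857338-86857407 (minus) for Rps6. Those of the high members lie at chr11:114668540-114668609 (plus) for Rpl38, chr17:33824533-33824602 (minus) for Rps28 and chr10:128626477-128626546 (minus) for Rps26. Over the whole 300-base entries and both strands, CGGAAG, letters of the ETS-type motif, occurred in 40 of 57 canonical members (70.2%), against 17.2% of all 27025 entries. Within 30 bases of the start on the coding strand, CTTTC or CTTCC, which can form part of a TOP tract, occurred in 33 of 57 (57.9%), against 19.2%. CTTCC overlaps the complement of CGGAAG, so the searches are not independent. The letters were chosen after the sequences had been read, and members at both ends of the diet order carried them in their entries.

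Ribosomal protein messengers made up a larger share of the UMIs of lymphocytes than of myeloid cells in both libraries. Their share was 30.8% in ketogenic and 29.8% in normal-diet NK cell-like barcodes, 27.9% and 26.3% in CD8 T cell-like, and 29.0% and 26.8% in other T cell-like barcodes. It was 16.2% and 14.3% in monocyte-like, 14.7% and 12.8% in macrophage-like, and 11.8% and 9.06% in neutrophil-like barcodes. Each lymphoid class was above each myeloid class within both libraries, in 18 of 18 pairs. With every cell thinned to 1000 UMIs, NK cell-like barcodes had 30.1% and 28.7% and macrophage-like barcodes 13.5% and 11.4%. Barcodes with tumor or stromal markers lay with the lymphocytes, at 27.6% and 26.9%. Among the smaller classes, B cell-like barcodes had 28.6% and 25.5%, and CCR7-positive dendritic cell-like barcodes 15.5% and 14.8%. Between these lay regulatory T cell-like barcodes with 23.4% and 22.3%, and plasmacytoid dendritic cell-like barcodes with 20.7% and 17.7%. Barcodes like type 2 conventional dendritic cells (cDC2) also lay between, with 20.4% and 19.5%.

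**Figure D1:**
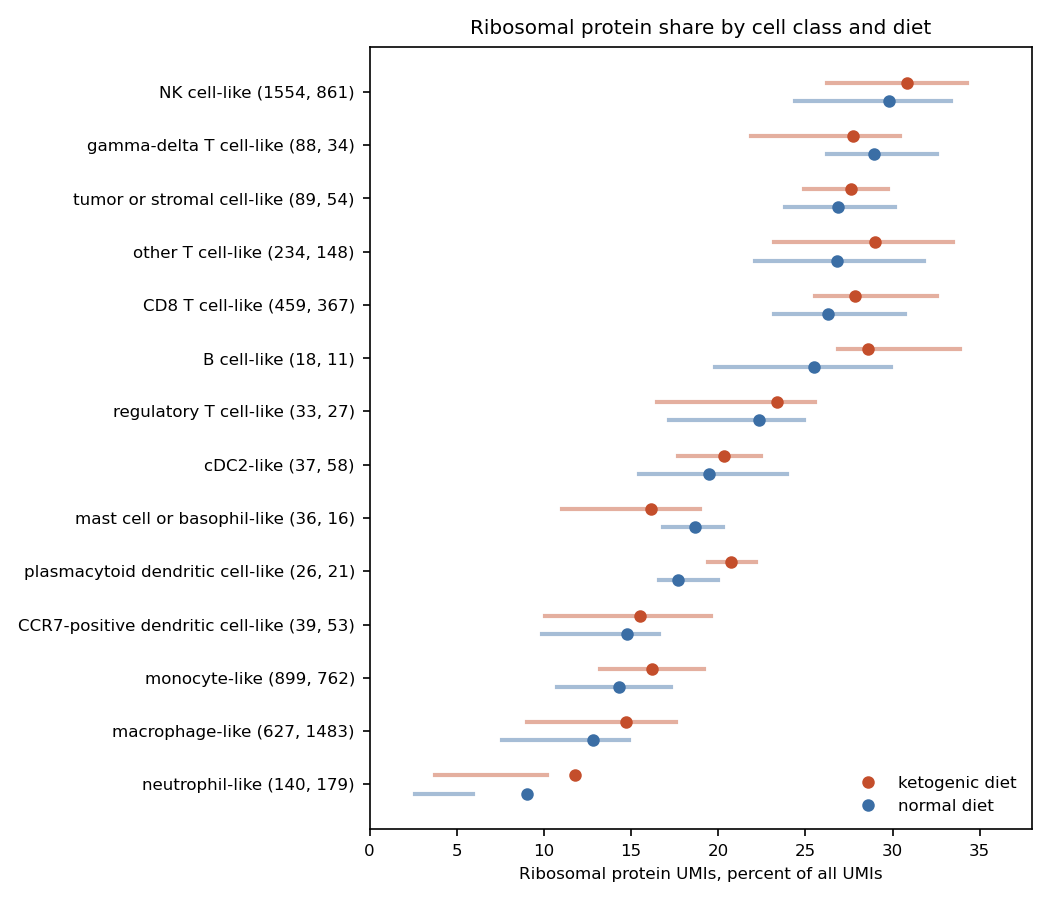
Share of ribosomal protein UMIs (x axis, percent of all UMIs of the class) in each cell class, with the cells in the ketogenic and the normal-diet library in brackets. Points give the share of the summed UMIs and bars the middle 50% of cells, and the ketogenic point lies to the right in 12 of 14 classes.

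The higher lymphoid level was shared by nearly all members. Of 80 members measured in all 6 classes, 78 had higher CPM in each of the 3 lymphoid classes than in each of the 3 myeloid classes in both libraries, and 0 were higher in the myeloid classes. Over all 807 genes measured the same way, the members among them, 22.3% were higher in the lymphoid classes and 30.1% in the myeloid ones. The 2 members whose classes overlapped were Rps27l and Rpl36al, both paralogs of a canonical protein. Rpl12, a protein of the ribosomal stalk base, had 3491 CPM in ketogenic and 4058 CPM in normal-diet NK cell-like barcodes. In monocyte-like barcodes it had 1027 and 1115 CPM.

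Once each class was set to its own list median, the canonical members kept nearly the same proportions. For 76 of 77 the 6 classes spanned less than 1 on the log2 scale, and for 62 less than 0.5. The exception was Rps9, a 40S protein near the messenger RNA entry channel, whose classes spanned 1.20. Its level relative to the list median was 0.17 in ketogenic and 0.20 in normal-diet NK cell-like barcodes, and 1.20 and 1.57 in neutrophil-like barcodes. The share of all genes within these ranges was not computed, so the counts do not show a trait particular to the members. In both libraries, 12 canonical members were relatively higher in all myeloid than in all lymphoid classes, among them Rps25, Rps29 and Rps27a. Another 10 were relatively higher in all lymphoid classes, among them Rpl12, Rps15a and Rps18. Both counts are smaller shares than over all 807 genes, of which 20.8% were higher in the myeloid and 34.6% in the lymphoid classes relative to the median gene. Rps27a encodes ubiquitin fused to a 40S protein, and its difference of myeloid minus lymphoid classes was 0.47 in the ketogenic and 0.55 in the normal-diet library on the log2 scale.

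**Figure D2:**
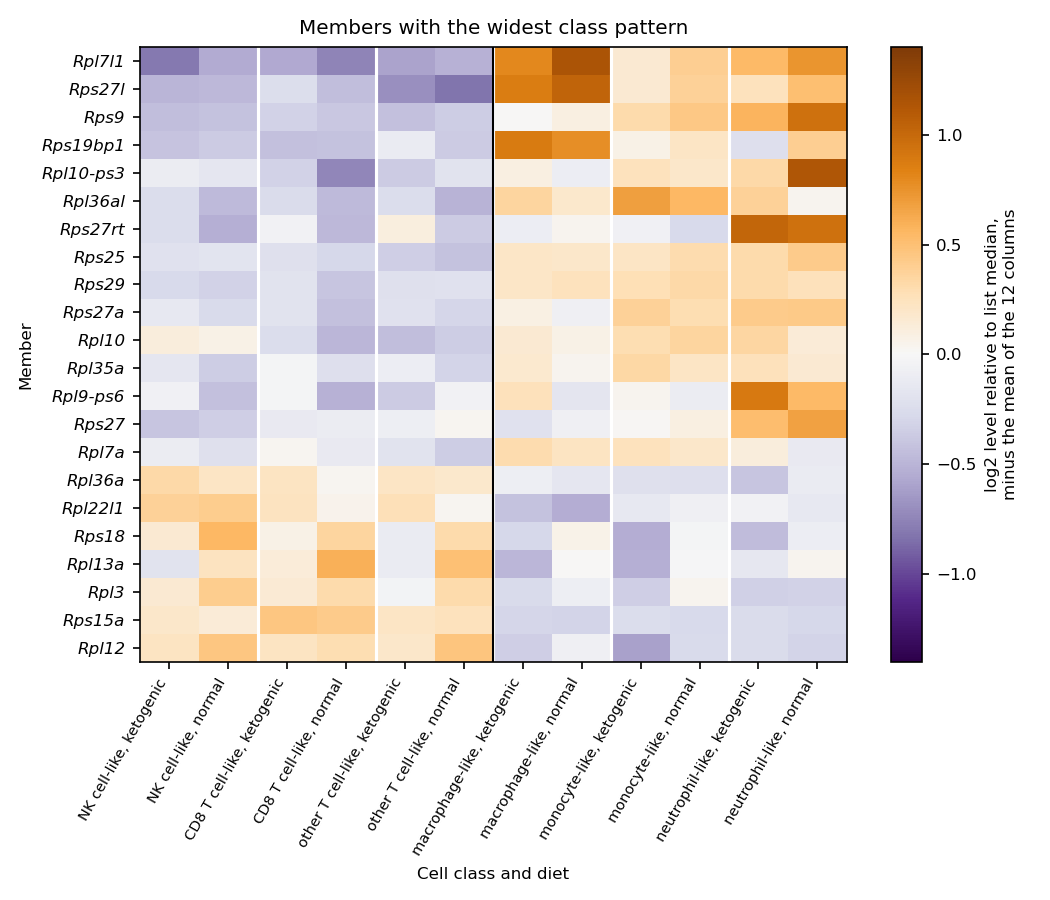
Level of members (rows) in 6 classes and both diets (columns), as log2 CPM + 1 relative to the list median of the column and then to the row's mean. The 10 members with the widest range and further wide canonical members are shown; Rps27l and Rpl7l1 are high in macrophage-like columns and Rpl22l1 in NK cell-like columns.

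Paralogs showed the widest differences between classes. Rps27l, a paralog of Rps27 known as a p53 target, held 25.8% of the UMIs of the pair in ketogenic and 26.1% in normal-diet macrophage-like barcodes. In NK cell-like barcodes it held 13.3% and 13.1%, with 95% exact binomial intervals that did not meet those of the macrophages. Its share was highest in CCR7-positive dendritic cell-like barcodes, at 53.7% (49.5 to 57.8) and 44.4% (40.7 to 48.0) in 39 and 53 cells.

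Rpl22l1, the paralog of Rpl22, went the other way. It held 29.4% and 33.8% of its pair in ketogenic and normal-diet NK cell-like barcodes, and 18.6% and 19.3% in macrophage-like barcodes. Rpl36al held 71.2% and 69.4% of its pair with Rpl36a in monocyte-like barcodes, against 47.1% and 45.2% in NK cell-like barcodes. Rpl7l1, which takes part in ribosome assembly, held 5.82% and 6.45% of its pair with Rpl7 in macrophage-like and 2.03% and 2.19% in NK cell-like barcodes.

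A further pair of paralogs were at the limit of detection. Rpl3l, known from muscle, had 20 and 22 UMIs in ketogenic and normal-diet macrophage-like barcodes and 1 and 0 in NK cell-like barcodes. Rpl39l, known from testis, had 0 and 7 UMIs in macrophage-like and 9 and 3 in NK cell-like barcodes. Rps27rt, Rpl9-ps6 and Rpl10-ps3 are near copies of canonical genes, so their UMIs are uncertain.

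The summed share was higher in the ketogenic library in all 6 main classes, and among these 6 the ratios were largest in the myeloid ones. In percentage points the difference was 2.76 in neutrophil-like, 2.17 in other T cell-like, 1.93 in monocyte-like and 1.90 in macrophage-like barcodes. The ratio of ketogenic to normal diet was 1.30 (95% counting interval 1.28 to 1.32) in neutrophil-like, 1.15 (1.14 to 1.15) in macrophage-like and 1.13 (1.13 to 1.14) in monocyte-like barcodes. It was 1.08 (1.07 to 1.09) in other T cell-like, 1.06 (1.06 to 1.06) in CD8 T cell-like and 1.03 (1.03 to 1.04) in NK cell-like barcodes. Tumor or stromal cell-like barcodes had a ratio of 1.03. The other small classes did not divide by lineage in this way. The ratio was 1.12 in B cell-like, 1.05 in regulatory T cell-like and 0.96 in gamma-delta T cell-like barcodes. It was 1.17 in plasmacytoid dendritic cell-like, 1.05 in cDC2-like, 1.05 in CCR7-positive dendritic cell-like and 0.86 in mast cell or basophil-like barcodes. Both subunits took part: in macrophage-like barcodes the median log2 ratio was 0.22 for 60S and 0.19 for 40S proteins.

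Cells of a class differed from each other more than the libraries did. The middle 50% of macrophage-like cells spanned 9.03% to 17.6% in the ketogenic and 7.58% to 14.9% in the normal-diet library. Within bins of UMIs per cell the ketogenic share was higher in 20 of 21 bins with at least 20 cells in each library. The exception was other T cell-like barcodes of 2000 to 4000 UMIs, at 29.5% against 29.6%. In neutrophil-like barcodes the summed share of 11.8% and 9.06% was weighted to deep cells. The median cell had 5.72% in the ketogenic and 3.76% in the normal-diet library. At 500 to 1000 UMIs the share was 4.86% and 4.31%, in 52 of 140 and 90 of 179 cells. At 1000 to 2000 UMIs it was 4.74% and 3.79%, in 36 and 51 cells. The libraries thus differed in their mix of shallow and deep cells. How far this mix set the class ratio of 1.30 was not tested. The neutrophil-like barcodes of 4000 to 8000 UMIs had 13.1% in the ketogenic library, where 30 cells fell in the bin.

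**Figure D3:**
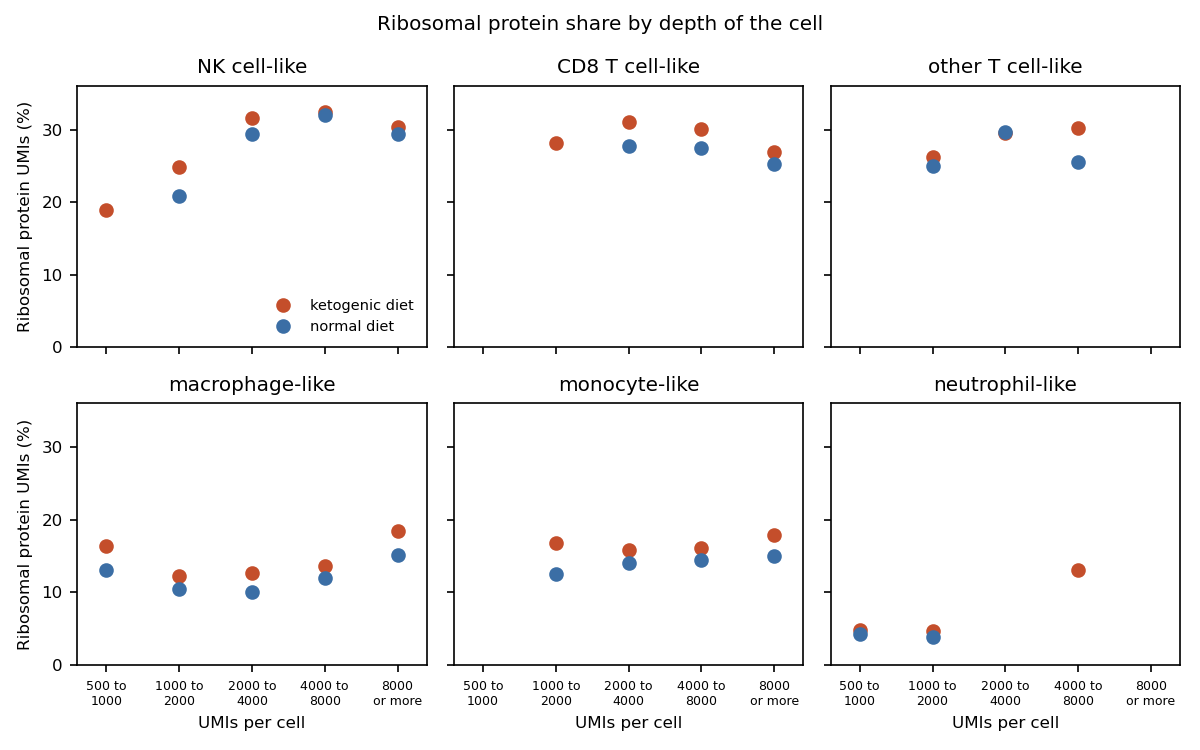
Share of ribosomal protein UMIs (y axis, percent) in bins of UMIs per cell (x axis) for 6 classes, shown where a library had at least 20 cells. Ketogenic points lie above normal-diet points in 20 of 21 bins that have both, and neutrophil-like barcodes of low depth lie under 5% in both libraries.

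Several measures moved with the diet ratio. The share of mitochondrially encoded genes was lower in the ketogenic library in 6 of 6 main classes and 13 of 14 classes, for example 1.11% against 1.73% in macrophage-like and 1.64% against 2.45% in NK cell-like barcodes. Barcodes with at most 100 UMIs, which mostly hold free RNA, had 26.1% ribosomal protein UMIs in the ketogenic and 18.7% in the normal-diet library. With 5% free RNA of this profile subtracted, the log2 ratio of the share was 0.0333 in NK cell-like barcodes, against 0.0492 before. In macrophage-like barcodes it was 0.17, against 0.20 before. The true amount of free RNA in the classes was not measured, and its part was not otherwise tested. Monocyte markers summed to 9927 and 6491 CPM in ketogenic and normal-diet neutrophil-like barcodes, with 9 of 9 genes detected in both, and their part was not tested either. Cells without UMIs of the cycling genes Mki67 and Top2a had 14.2% and 12.1% in the macrophage-like and 31.4% and 30.3% in the NK cell-like class, so the direction was the same without cycling cells.

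Single members were counted next. A member was measured in a class if it had at least 100 UMIs there over both libraries, and counted as higher or lower at a log2 ratio of at least 0.32 in size. In NK cell-like barcodes 6 of 86 members were higher in the ketogenic library and 5 lower, against 5.08% and 18.3% of all 7762 genes. In CD8 T cell-like barcodes 8 of 86 were higher and 3 lower, against 8.96% and 16.2% of all genes. In other T cell-like barcodes 13 of 81 were higher and 5 lower, against 16% and 15.9%, so the share of higher members was near that of all genes. All genes, here and below, passed the same minimum of 100 UMIs and include the members. They were not matched to the members by level, so the shares do not compare genes with like counting error. The counts moved with the setting: 11 members were higher in NK cell-like barcodes with the median of all genes set to 0, and 10 when cells were thinned to 1000 UMIs. In thinned cells 6 members were lower in CD8 T cell-like and 9 in other T cell-like barcodes.

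Counts in the myeloid classes were as follows. In macrophage-like barcodes 19 of 85 members were higher and 1 lower, against 5.73% and 27.5% of all genes, and in monocyte-like barcodes 19 of 85 were higher and 1 lower, against 7.15% and 23.2%. In neutrophil-like barcodes 55 of 80 were higher and 0 lower, against 28.8% and 24.6%, and 32 were higher when only barcodes of at least 1000 UMIs were used. The median log2 ratio of members was 0.22 in macrophage-like barcodes, where all genes had a median of -0.13, and 0.17 in monocyte-like barcodes, where all genes had -0.11. In neutrophil-like barcodes the medians were 0.41 for members and -0.00 for all genes. With the median of all genes set to 0, 45 members were higher in macrophage-like and 32 in monocyte-like barcodes. At 1.5-fold 2 members were higher in macrophage-like, 0 in monocyte-like and 13 in neutrophil-like barcodes.

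**Figure D4:**
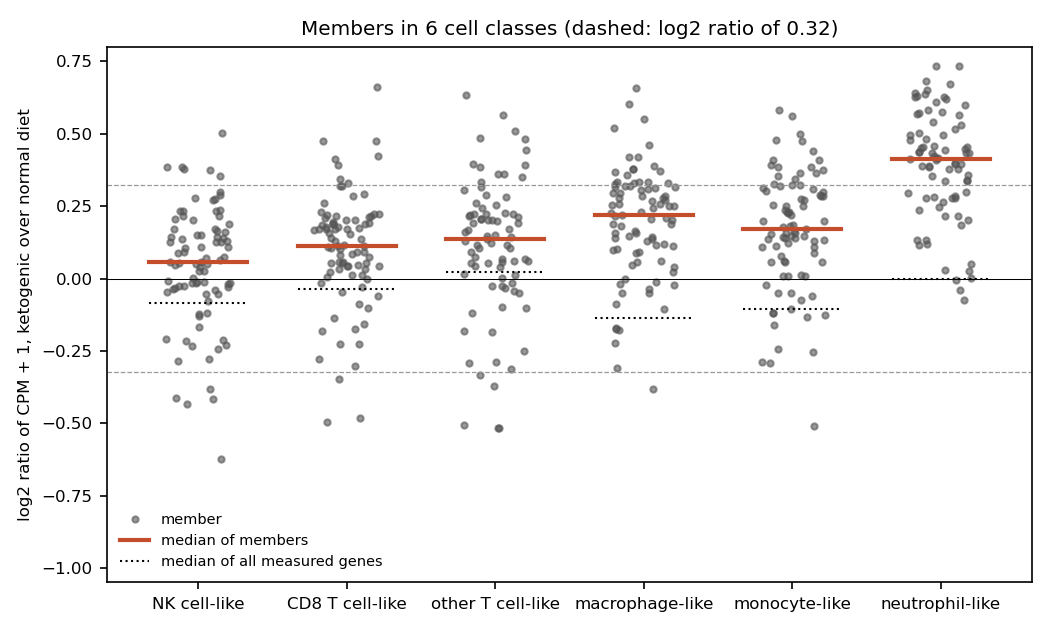
Log2 ratio of CPM + 1, ketogenic over normal diet (y axis), of each measured member in 6 classes (x axis). The solid lines are the medians of members, from 0.06 in NK cell-like to 0.41 in neutrophil-like barcodes, the dotted lines those of all measured genes, and the dashed lines a log2 ratio of 0.32 in size.

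The diet ratios of members were ordered by their median deviation from the list median. The median was taken over those of the 6 main classes where a member had at least 200 UMIs. Of the 77 canonical members, 18 lay above the list median in all 6 classes and 23 below, 41 in all. Of 385 genes with at least 200 UMIs in each class, 23.1% lay above and 22.3% below their own median in all 6 classes. The members' share above was near that of all genes, and their share below was larger. These genes include members and were not matched to them by level. Because the classes come from the same 2 libraries, they are not independent.

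At the low end stood Rpl4, a 60S protein lining the exit tunnel. It had 955 CPM in ketogenic and 1471 CPM in normal-diet NK cell-like barcodes, 462 and 602 CPM in macrophage-like, and 302 and 301 CPM in neutrophil-like barcodes. Only in neutrophil-like barcodes, of the 6 main classes, was Rpl4 not lower in the ketogenic library, and its median deviation from the list was -0.63 on the log2 scale. Rpl13a, known in human cells for a role in silencing inflammatory messengers, had 3137 and 4174 CPM in NK cell-like and 1250 and 1549 CPM in macrophage-like barcodes. Rps6, the 40S protein phosphorylated by S6 kinases, had 1935 and 2615 CPM in NK cell-like and 953 and 1112 CPM in macrophage-like barcodes. Rps19, mutated in human Diamond-Blackfan anemia, and Rps18 deviated by -0.45 and -0.43.

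At the high end stood Rpl38, a small 60S protein known for its role in translation of Hox messengers in mouse embryos. It had 3793 CPM in ketogenic and 2677 CPM in normal-diet NK cell-like barcodes, 1747 and 1107 CPM in macrophage-like, and 1302 and 894 CPM in neutrophil-like barcodes. It was higher in the ketogenic library in each of the 6 main classes, with a median deviation of 0.42. Rps28 had 3002 and 2299 CPM in NK cell-like and 1656 and 1154 CPM in macrophage-like barcodes. Rps26, another 40S protein, had 3665 and 2828 CPM in NK cell-like and 1715 and 1170 CPM in macrophage-like barcodes. Rpl37 deviated by 0.27. The pseudogene-named Rpl9-ps6, whose UMIs are uncertain, deviated by 0.34 over the 4 main classes where it had at least 200 UMIs.

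Members at the ends of the order were also compared in 2 sets of barcodes outside the 6 main classes. In tumor or stromal cell-like barcodes Rpl4 had 1078 CPM in the ketogenic and 1608 CPM in the normal-diet library, and Rpl38 had 2419 and 1735 CPM. In barcodes with at most 100 UMIs, Rpl4 deviated from the list median by -0.88 and Rpl38 by 0.54. Rpl9-ps6 and Rps27rt deviated there by -0.11 and -0.49, whereas their median deviations were 0.34 and 0.25 over 4 main classes each. Across the 77 canonical members the deviation had a Spearman correlation of -0.29 with transcript length, 0.00 with GC content and -0.04 with the number of named pseudogenes, given as a description. The 10 lowest canonical members had a median transcript length of 826.5 bases (490 to 1538) and the 10 highest 449 bases (271 to 1270). These lengths are of 1 annotated transcript per gene, which need not be the one expressed in these cells.

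**Figure D5:**
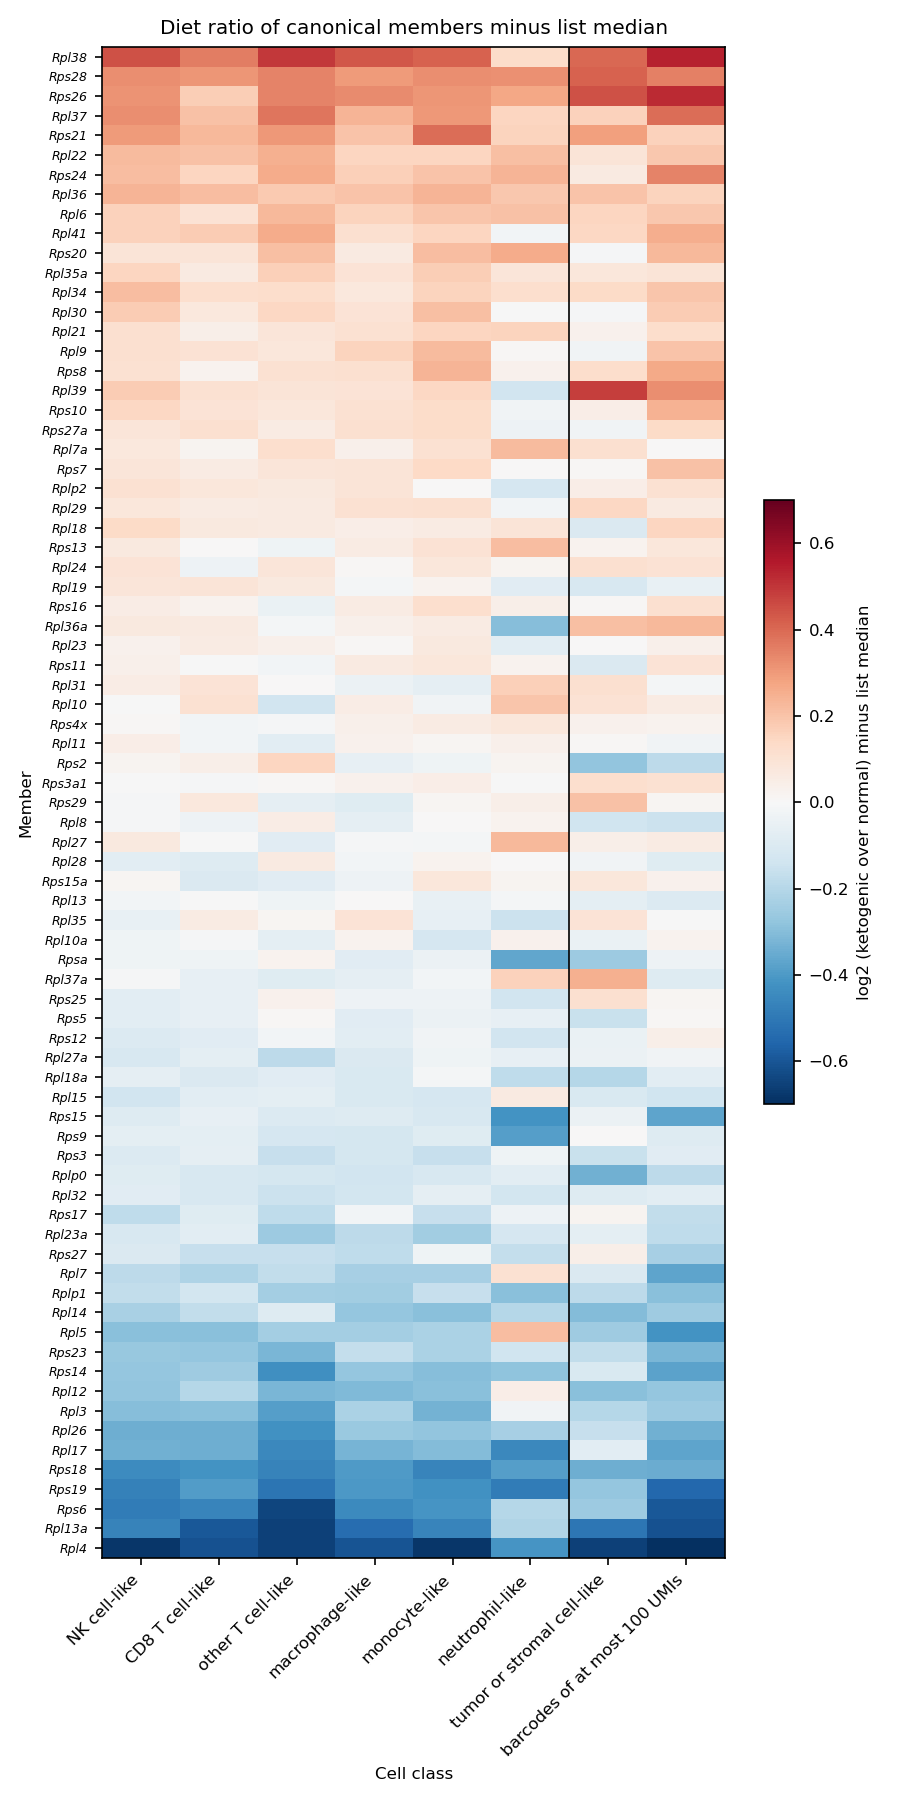
Diet ratio of the 77 canonical members (rows) as log2 ketogenic over normal diet minus the list median of each column, for 6 classes, tumor or stromal cell-like barcodes and barcodes of at most 100 UMIs. Rpl38, Rps28 and Rps26 are above and Rpl4, Rpl13a and Rps6 below the list median in every column.

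Members with roles beyond the core included some near the list median and some away from it. The list medians of the log2 ratio were 0.06 in NK cell-like and 0.22 in macrophage-like barcodes. Below the list lay Rps6, described above, with a median deviation of -0.45, and Rpl5 and Rplp1 with -0.24 and -0.21. The stalk proteins Rplp0 and Rplp1 had log2 ratios of -0.03 and -0.12 in NK cell-like and 0.09 and -0.02 in macrophage-like barcodes, whereas Rplp2 had 0.16 and 0.31. Rpl5 and Rpl11, which bind 5S RNA and the p53 regulator Mdm2, had -0.23 and 0.11 in NK cell-like and -0.02 and 0.25 in macrophage-like barcodes. Rpsa, also known as a laminin receptor, had 0.03 and 0.14, and the X-linked Rpl10 and Rps4x had 0.05 and 0.07 in NK cell-like and 0.27 and 0.26 in macrophage-like barcodes.

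Other genes of ribosome production were counted by the same limit, and the share of all genes in each class is given again beside them. Of 22 elongation and other TOP-type genes, 0 of 22 measured were higher and 3 lower in NK cell-like barcodes (all genes 5.08% and 18.3%), and 5 of 21 were higher and 1 lower in macrophage-like barcodes (all genes 5.73% and 27.5%). Fau, which encodes the 40S protein eS30 fused to a ubiquitin-like protein, had 5737 CPM in ketogenic and 4297 CPM in normal-diet macrophage-like barcodes. Eef1a1, the main elongation factor, had 3020 and 3214 CPM there. Of 47 ribosome assembly genes, 8 of 41 measured were higher and 0 lower in CD8 T cell-like barcodes (all genes 8.96% and 16.2%), among them Nop10 with 202 and 124 CPM. In macrophage-like barcodes 4 of 43 were higher and 5 lower (all genes 5.73% and 27.5%). RNA polymerase I genes had 0 of 7 higher and 3 lower in macrophage-like barcodes (all genes 5.73% and 27.5%), where Ubtf, the factor that keeps ribosomal DNA open, had 45.2 and 59.4 CPM. Regulators of ribosomal protein translation had 0 of 12 higher and 4 lower in NK cell-like barcodes (all genes 5.08% and 18.3%), among them Larp1, which binds TOP messengers, with 70.8 and 90.4 CPM. Of 78 mitochondrial ribosomal proteins, 14 of 68 measured were higher and 1 lower in monocyte-like barcodes, against 7.15% and 23.2% of all genes. In NK cell-like barcodes 4 of 78 were higher and 1 lower (all genes 5.08% and 18.3%). In macrophage-like barcodes 6 of 76 were higher and 2 lower (all genes 5.73% and 27.5%). There the higher shares were near those of all genes, but the lower shares were smaller. The median log2 ratios of these proteins were 0.06 and 0.09 in these classes, against -0.08 and -0.13 for all genes. CD8 T cell-like barcodes had 10 of 75 higher and 1 lower (all genes 8.96% and 16.2%). Other T cell-like barcodes had 9 of 35 higher and 0 lower (all genes 16% and 15.9%).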

How the data were processed

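Per the labels' protocols, libraries were made with a droplet-based 3′ kit, and per the submitters' processing notes with Cell Ranger 6.0.0, Seurat 3.2.0 and build GRCm38; the file headers name Cell Ranger 4. The authors deposited unfiltered matrices of raw UMI counts per gene and barcode. Members, gene lists and markers were chosen with earlier results of these data known. Gate thresholds were set from marker levels after the files had been read, and not changed once ribosomal protein values by class were seen. Depth bins, promoter motifs and the properties of length, GC content and pseudogenes were chosen after the data were seen. Barcodes with at least 500 UMIs, 300 genes and at most 10% mitochondrial UMIs were kept; barcodes with a second lineage were dropped in place of a doublet caller. Counts were summed per class and library, scaled to CPM, and compared as log2 of CPM + 1 with Python 3.11.15, numpy 2.4.6, scipy 1.17.1 and pandas 2.3.3. Intervals are 95% exact binomial, or for a ratio 95% counting intervals; UMIs share cells, so they cover counting error only. With 1 library per diet there was no test. Named were the 10 members with the widest class range (at least 500 UMIs), the 5 lowest and highest in diet order (at least 200 UMIs), paralogs with their partners, and members with known further roles. Transcript length and GC content are from GENCODE (GRCm38). They are of the shortest transcript annotated as principal for the gene, or of its shortest transcript where none was. The log2 ratio and the counting interval of a ratio were tested on simulated counts without spread between cells. The other steps, among them the gates, were not tested in this way.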

Additional observations from a re-analysis of the deposited data

Results flagged for a closer look

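In 2 of the smaller classes the summed ribosomal protein share was lower in the ketogenic library, opposite to the 6 main classes. In gamma-delta T cell-like barcodes it was 27.7% in the ketogenic and 29.0% in the normal-diet library (log2 ratio -0.0628), in 88 and 34 cells with a median of 2542 and 4214 UMIs. In mast cell or basophil-like barcodes it was 16.1% and 18.7% (log2 ratio -0.214), in 36 and 16 cells. Whether these ratios differ from those of the main classes was not tested, since each diet has 1 library. Looking for opposite classes was decided after the class values had been seen, because no member was past a log2 ratio of 0.32 in opposite directions in 2 main classes.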

How the results depend on the processing

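Over 13 alternative settings, no log2 ratio of the share and no deviation of a named member changed sign where it was recomputed. Counts have no sign, so they could not reverse. The summed share stayed higher in the ketogenic library in 6 of 6 classes and lymphoid above myeloid in 18 of 18 pairs wherever these were recomputed. The log2 ratios of the share below are those outside the counting interval. With 5% free RNA subtracted they were 0.0333 (NK cell-like), 0.0682 (CD8 T), 0.10 (other T), 0.17 (macrophage) and 0.16 (monocyte). Without mitochondrial and hemoglobin genes they were 0.0372, 0.0763, 0.10, 0.19 and 0.17 in the same classes. Thinned to 1000 UMIs they were 0.0706 (NK), 0.11 (CD8 T), 0.0912 (other T), 0.23 (macrophage) and 0.31 (neutrophil-like). With mixed barcodes kept, assigned by the gates' order, they were 0.0734 (CD8 T), 0.0937 (other T), 0.29 (macrophage), 0.27 (monocyte) and 0.45 (neutrophil). Without cycling cells they were 0.0895, 0.083, 0.23, 0.19 and 0.42 in those classes. At 8 own-marker UMIs they were 0.0458 (NK) and 0.10 (other T), at a 5% mitochondrial limit 0.0443 (NK) and 0.41 (neutrophil), and at 1000 UMIs per barcode 0.27 (neutrophil).

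Members counted as higher or lower, summed over 6 classes, were 120 higher and 15 lower, and at 1.5-fold 17 and 1. At 1.5-fold the higher members were 0 (NK), 1 (CD8 T), 1 (other T), 2 (macrophage), 0 (monocyte) and 13 (neutrophil), and the lower ones 1 in NK cell-like and 0 in the other classes. When thinned, 25 were lower in all, with 10 higher in NK, 34 higher and 1 lower in neutrophil, and 6, 9 and 2 lower in CD8 T, other T and monocyte-like barcodes. With the median of all genes set to 0, 11 (NK), 45 (macrophage) and 32 (monocyte) were higher, and 8 (other T) and 0 (macrophage) lower. With mixed barcodes kept 37 were higher and 0 lower in macrophage-like and 0 lower in monocyte-like barcodes. With free RNA subtracted 2 were lower in each of these classes, and without cycling cells 5 (CD8 T) and 8 (other T) were lower. Neutrophil-like barcodes had 32 higher at 1000 UMIs per barcode and 1 lower with all members that had a UMI, and canonical members alone gave 4 higher in CD8 T cell-like barcodes. Of the 10 members with the widest class range, 6 were kept when thinned and 2 among canonical members alone, which by construction removes the other 8. Of 128 values of named members, 23 left their counting interval, with no change of sign. Apart from the causes given by construction, the cause was not tested. No paired analysis was possible because each diet has 1 library. Depth limits Rpl39l and Rpl3l, which were measured in no main class.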
